A study of Mus musculus with 9 samples.

Results

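The nose breaks down inhaled chemicals with much the same enzyme families as the liver, and the genes of those families were followed here in the main olfactory epithelium (MOE). Members were the genes whose symbol falls in one of 10 families and that had at least 10 reads over 9 libraries: cytochromes P450 of families 1 to 4 (Cyp), flavin monooxygenases (Fmo), aldehyde oxidases (Aox), alcohol and aldehyde dehydrogenases (Adh, Aldh), carboxylesterases (Ces), epoxide hydrolases (Ephx), UDP-glucuronosyltransferases (Ugt), glutathione S-transferases (Gst) and sulfotransferases (Sult). They numbered 140 of the 202 symbols of these families in the count table and of 20213 genes with at least 10 reads. Of the other 62 symbols, 29 had 1 to 9 reads and 33 had none. Just inside the limit stood Adh4 and Gstm3 with 10 reads each, Ugt1a2 with 12, Sult2a1 with 13 and Aldh8a1 with 15. Just outside it stood Cyp2b9 with 9 reads, Aldh3b3 with 8, Cyp2c66 and Sult2a4 with 7 each and Cyp2c68 with 6.

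RNA-seq was performed on whole MOE from 9 mice, labelled C57BL/6 and postnatal day 14, of a line lacking TAAR enhancer 1, a noncoding element in the cluster of trace amine-associated receptor genes. The genotypes were wild type, heterozygous and homozygous for the deletion, with 3 mice each, and apart from the deletion no allele or treatment is named. The study's reporting summary gives a mixed background and another age for this line, and which applies to these libraries was not resolved. That the samples are separate mice is taken from the labels, and the p-values measure the spread between them. Each library held 24583906 to 32631951 reads in genes, so 3 reads correspond to 0.0919 to 0.122 CPM (reads scaled to library size by the TMM method), a limit that covers counting error only. Libraries of 1 genotype differed by more than sampling noise. As a check of the labels, 4 receptor genes of the cluster, Taar2 to Taar5, had 227 to 337 reads in all per wild type library, 158 to 176 per heterozygous library and 1 to 3 per homozygous library. Marker genes of the labelled tissue were present in every library, with summed levels of 7700 to 8572 CPM over 8 genes of mature olfactory sensory neurons (OSNs) and 4563 to 5032 CPM over 6 genes of sustentacular cells.

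Detoxification runs in steps. Cytochromes P450, flavin monooxygenases and aldehyde oxidases add or expose an oxygen, dehydrogenases oxidize the resulting alcohols and aldehydes, esterases and epoxide hydrolases split esters and epoxides with water, and transferases attach glucuronic acid, glutathione or sulfate so that the product can be exported. In the olfactory mucosa these enzymes are best known from sustentacular cells, the supporting cells around the OSNs, and from Bowman's glands beneath the epithelium. There they clear odorants and protect the tissue, and they also activate some inhaled toxicants.

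The stretches just before the start sites of the most abundant members are shown because those genes carry most of the signal below. Of the 140 members, 113 had an entry in the RefSeq promoter table for GRCm38.p6, and 4 of the 5 most abundant ones were among them. Each line gives the 250 bases before the RefSeq start, 5′ to 3′ on the strand of the gene. Capitals mark TTGGCA, the half-site of nuclear factor I proteins, and TATAAA, the core of the TATA box, both searched on both strands and not overlapping each other in these stretches. The positions are chr7:26835089-26835338 on the plus strand for Cyp2a5, chr7:27119705-27119954 on the plus strand for Cyp2f2, chr17:53990632-53990881 on the minus strand for Sult1c1 and chr5:87490872-87491121 on the minus strand for Ugt2a1.
Cyp2a5: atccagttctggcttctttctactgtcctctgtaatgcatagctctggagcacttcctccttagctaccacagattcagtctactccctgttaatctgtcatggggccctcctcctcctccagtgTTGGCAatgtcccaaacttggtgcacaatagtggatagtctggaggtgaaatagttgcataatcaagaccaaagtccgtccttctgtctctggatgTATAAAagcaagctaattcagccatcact
Cyp2f2: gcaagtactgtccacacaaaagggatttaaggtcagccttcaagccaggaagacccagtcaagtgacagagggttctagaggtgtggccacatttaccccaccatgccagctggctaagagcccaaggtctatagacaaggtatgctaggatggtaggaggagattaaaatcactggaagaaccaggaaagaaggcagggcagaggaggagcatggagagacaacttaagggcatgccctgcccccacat
Sult1c1: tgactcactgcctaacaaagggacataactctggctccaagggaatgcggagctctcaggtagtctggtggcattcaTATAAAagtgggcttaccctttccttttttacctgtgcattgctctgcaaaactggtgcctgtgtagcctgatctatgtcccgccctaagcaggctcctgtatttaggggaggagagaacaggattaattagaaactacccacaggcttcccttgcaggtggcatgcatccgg
Ugt2a1: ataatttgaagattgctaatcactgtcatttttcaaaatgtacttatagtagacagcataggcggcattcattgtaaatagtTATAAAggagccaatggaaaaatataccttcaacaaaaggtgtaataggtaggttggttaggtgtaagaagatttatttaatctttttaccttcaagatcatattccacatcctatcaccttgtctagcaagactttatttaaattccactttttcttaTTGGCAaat

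In Cyp2a5 the TATAAA begins 29 bases before the start and the TTGGCA 125 bases before it. In Ugt2a1 both also occur, at 168 and 9 bases before the start, Sult1c1 holds only TATAAA at 173 bases, and the stretch of Cyp2f2 holds neither. TTGGCA was found in 24.8% of 133 member stretches and in 12.3% of all 32851 stretches of the table, and TATAAA in 18.8% and 12.4%. The cores GCGTG and TGACNNNGC, known from sites of the aryl hydrocarbon receptor and of Nrf2, were found in 21.1% and 6.02% of member stretches and in 28.2% and 10.2% of all stretches. A letter match is a description and does not show a bound site. Cyp2a4, the near-identical neighbour of Cyp2a5, is shown for comparison, at chr7:26306942-26307191 on the plus strand.
Cyp2a4: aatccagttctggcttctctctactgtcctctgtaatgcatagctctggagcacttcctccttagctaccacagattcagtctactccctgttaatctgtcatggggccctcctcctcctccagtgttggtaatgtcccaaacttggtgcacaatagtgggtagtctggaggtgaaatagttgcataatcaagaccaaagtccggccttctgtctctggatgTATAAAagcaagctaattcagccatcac

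Set 1 base further along, the stretch of Cyp2a4 matched that of Cyp2a5 at 245 of 249 bases. Counted from 1 at the first base shown for Cyp2a5, the differences were T18C, C130T, A160G and T204G, with the base of Cyp2a5 first, and C130T falls in the TTGGCA. The TATAAA was kept.

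The 140 members together made up 24473 ± 692 TPM (reads per exon length, scaled to the same sum in each library, SD, n = 3) in wild type mice. That sum was very uneven. The 3 most abundant genes held 51.6% of it and the top 20 held 87.1%, while 33 members were under 1 TPM. At or above 100 TPM were 30 members, 21.4% of them, against 10.7% of all genes tested, although the median member, at 15.5 TPM, was close to the median gene at 17.3 TPM. The 6 members among the 100 most abundant genes of the tissue were Cyp2a5, Cyp2g1, Cyp2f2, Sult1c1, Ugt2a1 and Gstm1.

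**Figure D1:**
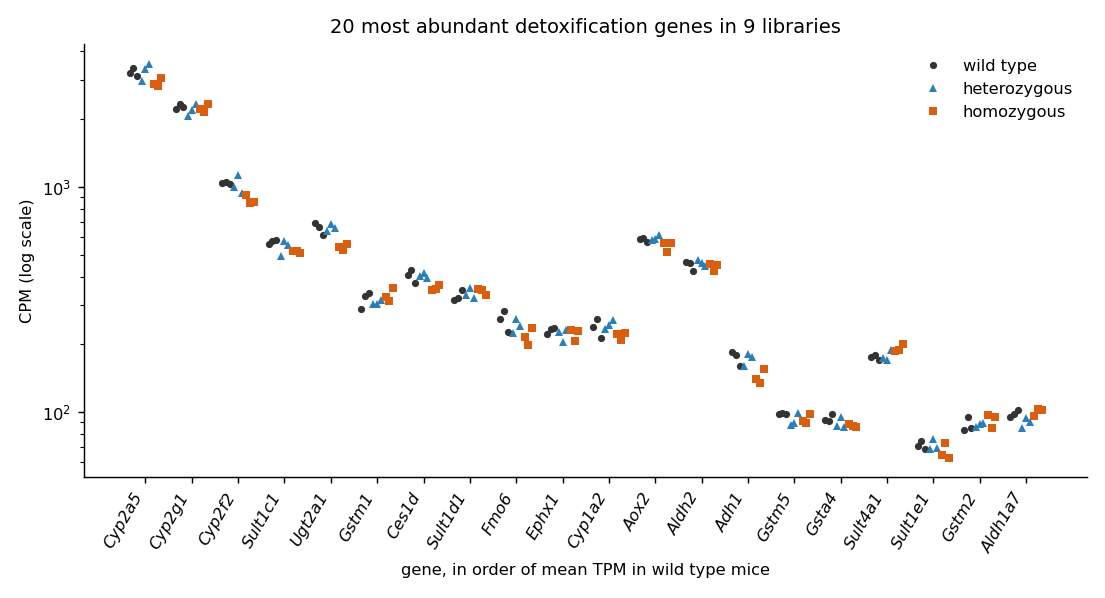
CPM (log axis) of the 20 most abundant members in each library, with genes in order of mean TPM in wild type mice and 1 point per mouse. Wild type means run from 3228 CPM for Cyp2a5 to 71.2 CPM for Sult1e1, and points of 1 gene lie close together beside the differences between genes.

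Oxidation by cytochromes P450 took the largest share. The 49 Cyp members summed to 13920 ± 471 TPM (SD, n = 3), 56.9% of the total of all members. Cyp2a5, the coumarin 7-hydroxylase, was the 3rd most abundant gene of the tissue at 6280 ± 299 TPM. Cyp2g1, a P450 largely limited to the olfactory mucosa, stood 9th at 4278 ± 109 TPM, and Cyp2f2, which activates naphthalene and styrene, 30th at 2076 ± 25.5 TPM (SD, n = 3 each). All 3 lie in 1 stretch of chromosome 7 (GRCm38, 25802475 to 27158668) with 9 further members, and this stretch held 52.0% of all member TPM. Its other genes were low, and the next after those 3 was Cyp2a4, a steroid hydroxylase, at 33.0 ± 7.55 TPM (SD, n = 3). Cyp2a4 and Cyp2a5 share sequence, with 88.8% and 91.9% of their 100-base transcript stretches found in no other listed gene, so reads of the shared part could be assigned either way or dropped. Wild type means were 3228 CPM for Cyp2a5 and 14.2 CPM for Cyp2a4. A part of the reads that is small for Cyp2a5 could thus be large for Cyp2a4.

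Outside that cluster, Cyp1a2 and Cyp1a1, which oxidize aromatic amines and polycyclic hydrocarbons, stood at 475 ± 46.8 and 163 ± 25.7 TPM (SD, n = 3 each). They are neighbours on chromosome 9 (GRCm38, 57676937 to 57703824). Cyp2e1, the ethanol-oxidizing P450, had 63.3 ± 2.43 TPM (SD, n = 3). Cyp2c and most Cyp3a genes, abundant in liver, were low. The 4 Cyp2c members summed to 2.92 TPM, with 12 of 16 Cyp2c symbols under 10 reads, and 7 of 9 Cyp3a symbols were also under 10 reads, Cyp3a13 being the one of the family with an appreciable level (40.4 ± 3.15 TPM, SD, n = 3). Summed over 5 hepatocyte markers, each library had 0.285 to 1.35 CPM.

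Flavin monooxygenases, which oxidize nitrogen and sulfur, were led by Fmo6 with 528 ± 58.2 TPM, followed by Fmo5, on chromosome 3, with 110.0 ± 20.2 TPM (SD, n = 3 each), and the 5 other members lie together on chromosome 1. The 4 aldehyde oxidases form another cluster on chromosome 1 (GRCm38, 58029931 to 58380259). Their signal came mostly from Aox2, at 409 ± 10.2 TPM, with Aox3 at 36.7 ± 1.89 TPM (SD, n = 3 each). Among the dehydrogenases, Aldh2, the mitochondrial acetaldehyde dehydrogenase, had 354 ± 18.3 TPM and Adh1, the classical alcohol dehydrogenase, 316 ± 23.5 TPM. Aldh1a7, whose close relatives make retinoic acid, had 192 ± 6.12 TPM, and Adh5, which clears formaldehyde bound to glutathione, 93.0 ± 1.2 TPM (SD, n = 3 each). Of the 20 Aldh members, 17 stood at 10 TPM or more, among them Aldh1a1, a retinaldehyde dehydrogenase, at 153 ± 5.13 TPM (SD, n = 3).

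Hydrolysis rested on few genes. Ces1d, a carboxylesterase, had 685 ± 45.4 TPM and Ces1a 139.9 ± 16.4 TPM (SD, n = 3 each), while the 5 Ces2 members summed to 9.37 TPM. Ephx1, the microsomal epoxide hydrolase, had 477 ± 16.0 TPM, and Ephx4 81.7 ± 0.753 TPM (SD, n = 3 each).

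Conjugation was led by the sulfotransferase Sult1c1 at 1480 ± 30.1 TPM and by Ugt2a1, the glucuronosyltransferase best known from the olfactory epithelium, at 1031 ± 65.8 TPM (SD, n = 3 each). Ugt2a1 and Ugt2a2 (64.1 ± 1.66 TPM, SD, n = 3) share all but their first exons. Of the 2570 exonic bases of Ugt2a1, 799 belong to no other gene, and of the 2541 of Ugt2a2, 770. If reads in the shared exons were dropped, the TPM values understate both genes: per base of unshared exon, an alternative chosen after seeing the data, Ugt2a1 stood at 3328 ± 210 TPM and Ugt2a2 at 212 ± 5.66 TPM (SD, n = 3 each). The 5 Ugt1a members share exons in the same way and were low, summing to 15.0 TPM. These 7 Ugt genes were the members with under 50% of 100-base stretches to themselves, and 116 members had over 95%.

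Ugt2a1, Ugt2a2, Sult1d1 and Sult1e1 are in 1 stretch of chromosome 5 (GRCm38, 86889767 to 87591594). Sult1d1, which sulfates catecholamines, had 539 ± 27.9 TPM, Sult4a1, a brain-type member, 281 ± 7.24 TPM and Sult1e1, the estrogen sulfotransferase, 231 ± 11.4 TPM (SD, n = 3 each). Glutathione S-transferases were mainly of the mu class, and its 7 genes in 1 cluster on chromosome 3 summed to 1494 TPM. Gstm1 had 871 ± 72.1 TPM, Gstm5 311 ± 3.30 TPM and Gstm2 210.2 ± 15.8 TPM, beside Gsta4, which conjugates products of lipid peroxidation, with 299 ± 10.5 TPM (SD, n = 3 each). In all, 104 of the 140 members lay within 500000 bases of another member, in 22 clusters.

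Mice of 1 genotype differed little in most members. Over the 84 members with a mean of at least 100 reads, the median SD of log2 CPM within a genotype was 0.10, against 0.083 over all 13815 genes at that depth. The steadiest were Aldh7a1, with an SD of 0.025, then Cyp4v3 (0.042), Aox2 (0.052), Aldh3a2 (0.052) and Cyp2j6 (0.054). At the other end stood Aldh3a1 (0.43), Gsto1 (0.38), Adh7 (0.36), Cyp2a4 (0.35) and Cyp4a12b (0.34). Reads of Cyp4a12b can be shared with Cyp4a12a, and reads of Cyp2a4 with the far more abundant Cyp2a5.

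Aldh3a1, an aldehyde dehydrogenase of surface epithelia, ran at 30.8, 32.0 and 37.9 CPM in wild type mice, 31.0, 45.0 and 17.5 CPM in heterozygous mice and 21.1, 27.3 and 20.8 CPM in homozygous mice, for replicates 1 to 3. Adh7, the alcohol dehydrogenase of epithelia, ran at 32.6, 34.6 and 43.0, at 30.9, 44.1 and 21.1, and at 21.7, 27.9 and 19.7 CPM in the same order. Gsto1, an omega class transferase, ran at 49.4, 47.4 and 74.0, at 54.3, 60.6 and 31.1, and at 37.7, 49.1 and 39.3 CPM. In all 3 genes the lowest libraries were heterozygous replicate 3 and homozygous replicates 1 and 3, and the highest were wild type replicate 3 and heterozygous replicate 2. The same 3 libraries were lowest and the same 2 highest for the summed level of 6 genes of ciliated respiratory epithelium, which was 407, 417 and 404.5 CPM in the former and 529 and 574 CPM in the latter. That sum moved mostly with Dnah5 (53.0 to 142.7 CPM over the 9 libraries) and Dnah9 (55.7 to 92.4 CPM). Foxj1 (130.5 to 160.8 CPM), Ccdc39 (100.4 to 117.2 CPM), Tekt1 (36.7 to 47.3 CPM) and Dnaic1 (13.7 to 15.9 CPM) moved less. Gland markers ranged from 990.5 CPM in heterozygous replicate 3 to 5891 CPM in wild type replicate 3. Over the 9 libraries, Pearson correlations of Aldh3a1, Adh7 and Gsto1 with summed ciliated cell markers were 0.97, 0.96 and 0.90. They were 0.83, 0.81 and 0.89 with gland markers and -0.87, -0.92 and -0.82 with mature OSN markers. The part of tissue composition in the levels of these genes was not tested. In RNA from bulk tissue, fewer cells of a type cannot be told apart from less RNA per cell.

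**Figure D2:**
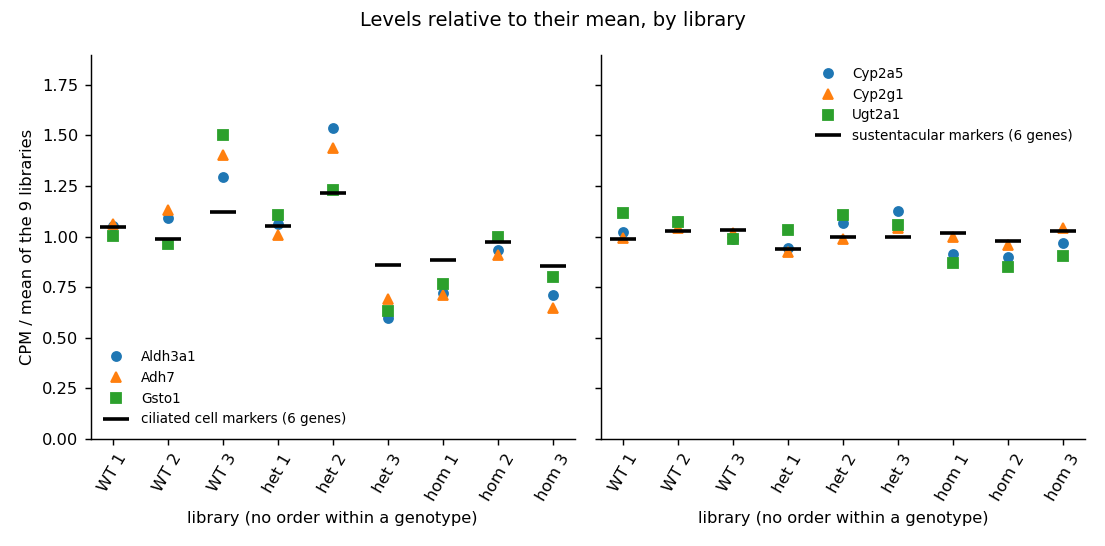
Levels in each library divided by their mean over the 9 libraries (both axes linear): left, Aldh3a1, Adh7 and Gsto1 with the summed level of 6 ciliated cell markers (bars); right, Cyp2a5, Cyp2g1 and Ugt2a1 with 6 sustentacular markers (bars). The left genes dip with the bars in heterozygous replicate 3 and in homozygous replicates 1 and 3, and the right panel stays close to 1.

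The main comparison asked whether the members differ when both copies of the enhancer are deleted. Their summed level was lower in homozygous mice, at 13017 ± 366 CPM against 14126 ± 353 CPM in wild type mice (SD, n = 3 each), or -7.85%. The homozygous libraries lay between 12644 and 13376 CPM and the wild type libraries between 13839 and 14521 CPM, without overlap. Heterozygous libraries, from 13304 to 14432 CPM, overlapped both. Leaving out the 3 most abundant genes, the homozygous libraries still lay lower, at 6834 to 7145 CPM against 7427 to 7766 CPM.

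Gene by gene, no member passed the test. edgeR's quasi-likelihood test called 0 of 140 members at a Benjamini-Hochberg adjusted p under 0.05, against 0.0495% of all genes. DESeq2 with default settings called 63 genes, of which 5 were members (Ugt2a1, Cyp2f2, Adh1, Aox3 and Ces1d, all lower). At an unadjusted p under 0.05, 27 members were lower, 19.3% of them against 4.71% of all genes, and 1 was higher, Sult4a1, against 4.55% of all genes. In 32 members, or 22.9%, every homozygous library lay below every wild type library, against 7.95% of all genes, and in 6 members every one lay above, against 7.46% of all genes. Of the members, 71.4% had a log2 fold change below 0, against 50.2% of all genes, and the median log2 fold change was -0.10 against -0.00057 over all genes. Among the 84 deeper members the median was -0.090.

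**Figure D3:**
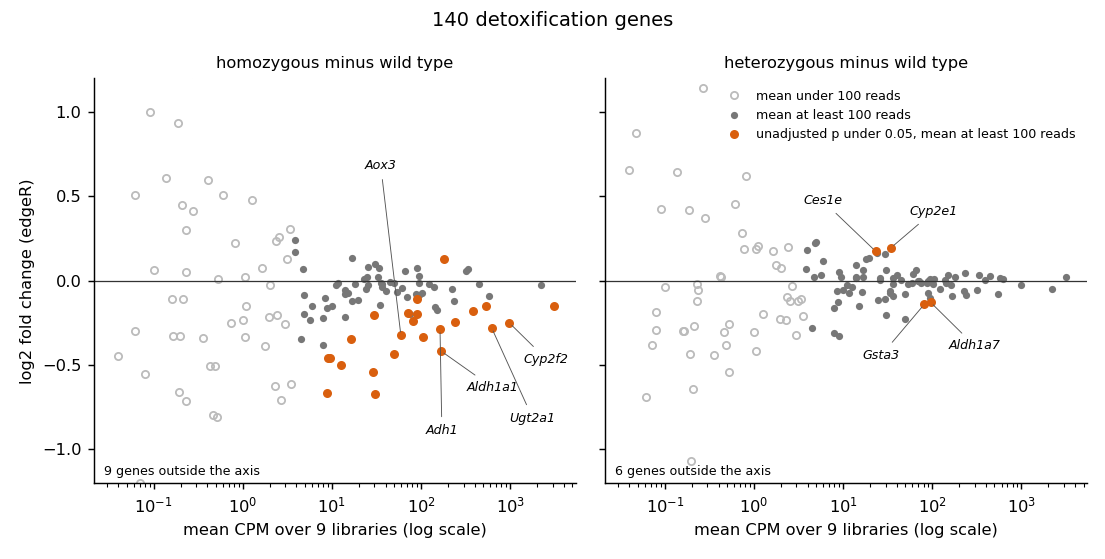
log2 fold change by edgeR against mean CPM (log axis) of the members, homozygous minus wild type (left) and heterozygous minus wild type (right), 1 point per gene. Among genes with a mean of at least 100 reads, those with an unadjusted p under 0.05 lie below 0 at left apart from Sult4a1, and only 4 appear at right.

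Ugt2a1 (GRCm38 chromosome 5, 87459490 to 87490871, minus strand) came closest to the threshold. It had 692, 665 and 613 CPM in wild type mice, 639, 686 and 656 CPM in heterozygous mice and 539.5, 525 and 559.5 CPM in homozygous mice. The homozygous libraries lay below all others, and their mean was 82.5% of wild type, with a log2 fold change of -0.28 (edgeR: SE 0.049, adjusted p = 0.0799). Over 18 alternatives the adjusted p ran from 2.20e-05 to 0.925, the latter in a fit with 1 homozygous library left, and 8 of them called the gene, among them the fits without wild type replicate 3 (adjusted p = 0.0306), without heterozygous replicate 2 (0.0491) and without heterozygous replicate 3 (0.0394). Its neighbour Ugt2a2 had a log2 fold change of -0.060 (edgeR: SE 0.068, adjusted p = 0.849).

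Aox3 had 60.4, 64.3 and 67.1 CPM in wild type, 65.7, 68.6 and 55.9 CPM in heterozygous and 53.7, 49.7 and 49.8 CPM in homozygous mice, a log2 fold change of -0.32 (edgeR: SE 0.070, adjusted p = 0.220). It was called in 4 of 18 alternatives, among them the edgeR fit without heterozygous replicate 3 (adjusted p = 0.0319). Aox2, the abundant member beside it, had a log2 fold change of -0.093 (edgeR: SE 0.045, adjusted p = 0.552). The homozygous libraries of Aox3 lay below all libraries of the other genotypes.

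Adh1 (chromosome 3, 138260991 to 138290698) had 184, 179.7 and 161 CPM in wild type, 159.8, 180.5 and 176 CPM in heterozygous and 140.4, 134 and 155 CPM in homozygous mice, a log2 fold change of -0.29 (edgeR: SE 0.065, adjusted p = 0.221). Cyp2f2 (chromosome 7, 27119909 to 27133660) had 1045, 1049 and 1033 CPM in wild type, 1001, 1134 and 942 CPM in heterozygous and 925, 846 and 858 CPM in homozygous mice, a log2 fold change of -0.25 (edgeR: SE 0.057, adjusted p = 0.221). Both had homozygous libraries below all others. Of 18 alternatives, 3 called Adh1 and 4 called Cyp2f2, among the latter the edgeR fit without heterozygous replicate 2 (adjusted p = 0.0480). Of its abundant neighbours, Cyp2a5 had 3202, 3379 and 3102 CPM in wild type, 2959, 3350.5 and 3531 CPM in heterozygous and 2859, 2821 and 3040.4 CPM in homozygous mice. Cyp2g1 had 2221, 2327 and 2278 CPM, 2067, 2206 and 2329 CPM, and 2231, 2144 and 2333 CPM in the same order. The homozygous libraries of Cyp2a5 lay below those of wild type but overlapped the heterozygous ones, and those of Cyp2g1 overlapped both. Cyp2a5 had a log2 fold change of -0.15 (edgeR: SE 0.054, adjusted p = 0.431) and Cyp2g1 of -0.025 (edgeR: SE 0.045, adjusted p = 0.913). The difference between these neighbours was not tested.

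**Figure D4:**
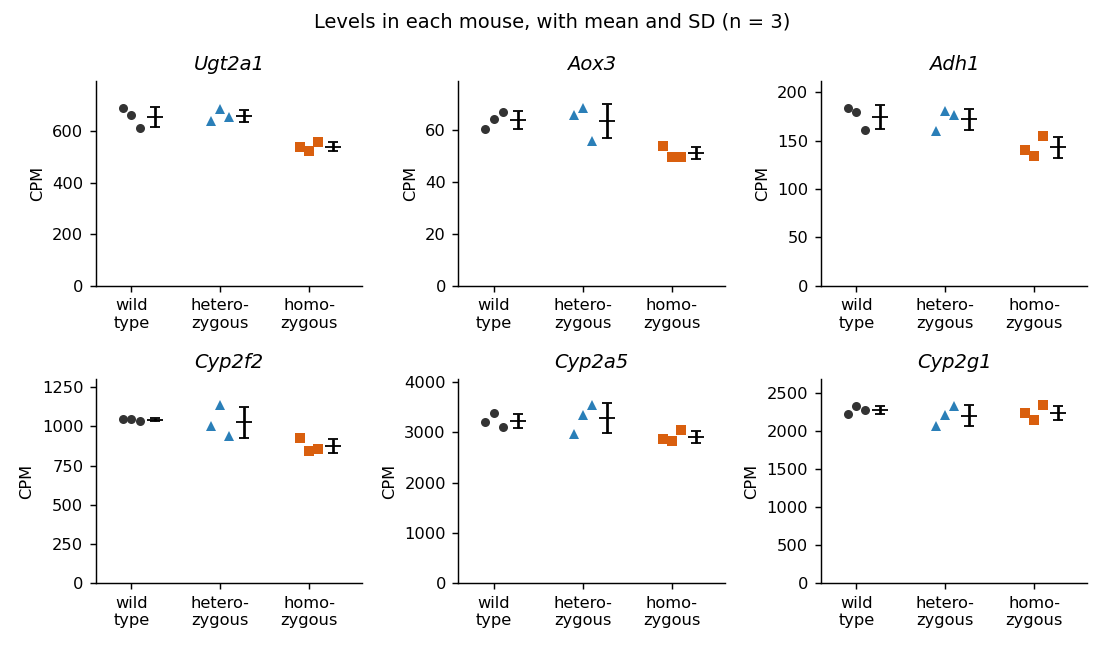
CPM in each mouse (points) with mean and SD (bars, n = 3) by genotype for Ugt2a1, Aox3, Adh1, Cyp2f2, Cyp2a5 and Cyp2g1, with every axis starting at 0. For all but Cyp2g1 the homozygous points lie below the wild type points.

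Sult4a1 had 176, 178 and 171 CPM in wild type, 174.5, 171 and 188 CPM in heterozygous and 186, 188 and 200.9 CPM in homozygous mice, a log2 fold change of 0.13 (edgeR: SE 0.049, adjusted p = 0.451). Its homozygous libraries lay above the wild type ones. Aldh1a1 had 179.9, 190.5 and 191 CPM in wild type, 157, 221 and 149 CPM in heterozygous and 132, 150.4 and 138.5 CPM in homozygous mice, a log2 fold change of -0.42 (edgeR: SE 0.11, adjusted p = 0.294). Its homozygous libraries lay below the wild type ones and overlapped the heterozygous ones. Aldh1a1, Aox3 and Cyp2f2 also had the 4 libraries that were lowest in ciliated cell markers, heterozygous replicate 3 and the 3 homozygous ones, as their 4 lowest, and the part of ciliated cells in their values was not tested. Among the remaining abundant members, Ces1d had a log2 fold change of -0.18 (edgeR: SE 0.049, adjusted p = 0.332) and Sult1c1 of -0.15 (edgeR: SE 0.052, adjusted p = 0.425), both with separate groups. Fmo6 had -0.24 (edgeR: SE 0.077, adjusted p = 0.376) with overlapping groups. Gstm1, Sult1d1, Ephx1, Aldh2 and Gstm2 had log2 fold changes from -0.049 to 0.075, with overlapping groups. Adh7 and Aldh3a1, whose low libraries were those low in ciliated cell markers, had -0.67 (edgeR: SE 0.19, adjusted p = 0.343) and -0.54 (edgeR: SE 0.22, adjusted p = 0.480).

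By class, all 5 Adh, 4 Aox and 6 Fmo members had a log2 fold change below 0, with medians of -0.45, -0.24 and -0.22. For Cyp, 35 of 49 were below 0 (median -0.10), for Ugt 9 of 11 (median -0.33), for Aldh 14 of 20 (median -0.029), for Gst 12 of 17 (median -0.077), for Ces 7 of 13 (median -0.18) and for Ephx 3 of 4 (median -0.12), while Sult had 5 of 11 (median 0.067). These counts and medians include members of few reads, whose fold changes are poorly estimated. The Adh median is the value of Adh4, which had 10 reads over 9 libraries (edgeR SE 1.45). The other Adh members had -0.29 (Adh1), -0.021 (Adh5), -0.67 (Adh7) and, with 127 reads, -0.81 (Adh6a). Ugt summed to 712.5 ± 40.7 CPM in wild type and 591 ± 18.8 CPM in homozygous mice, and Adh to 337 ± 4.42 and 289.7 ± 11.5 CPM (SD, n = 3 each). Ugt2a1 alone made up 657 and 541.5 CPM of the Ugt sums, so the class sum mostly repeats that gene. Gst and Ephx sums overlapped between these genotypes, at 828 to 917 against 824 to 884 CPM and at 260.4 to 276 against 249 to 271 CPM.

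**Figure D5:**
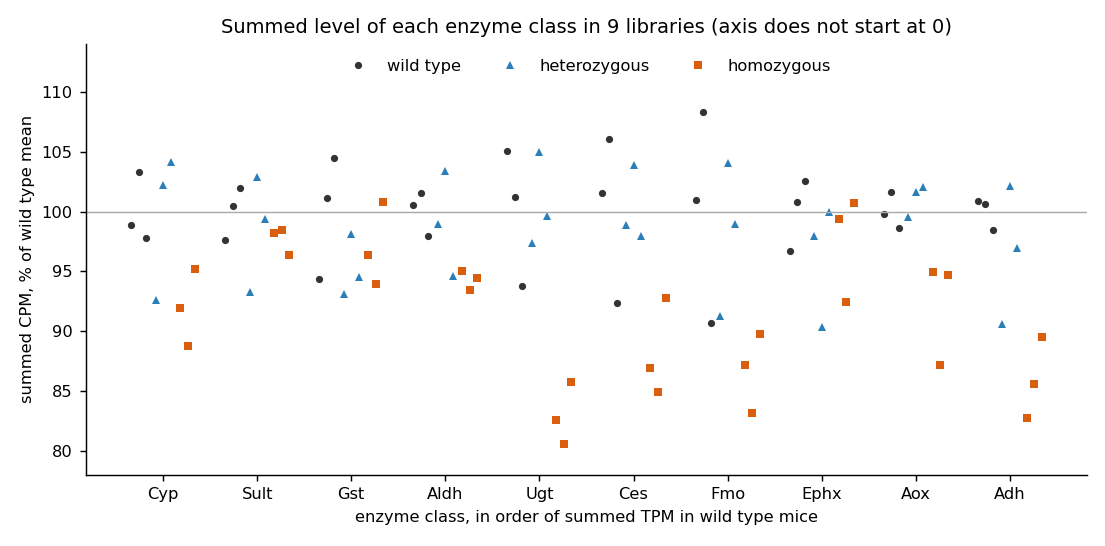
Summed CPM of each enzyme class in each library as a percentage of the wild type mean, on an axis that does not start at 0. Every homozygous point lies below every wild type point for Cyp, Aldh, Ugt, Fmo, Aox and Adh, and they overlap for Sult, Gst, Ces and Ephx.

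Summed marker levels of other cells also differed between the libraries. The sum of mature OSN markers was higher in every homozygous library (7940 to 8572 CPM) than in every wild type library (7700 to 7787 CPM). So was that of immature OSN markers (758 to 794 against 719.5 to 737 CPM). By gene, only Omp, Gnal and Rtp1 of the mature list separated in this way. The other mature genes and every immature gene overlapped between these genotypes. The sum of ciliated respiratory epithelium markers was lower (404.5 to 460.0 against 466.5 to 529 CPM), as was that of 4 endothelial genes (73.7 to 80.0 against 84.7 to 86.3 CPM). By gene, Dnah5, Dnah9, Pecam1 and Cdh5 separated, and the other ciliated and endothelial genes overlapped. Sustentacular markers overlapped (4764 to 4999 against 4803 to 5032 CPM), and so did gland markers (1075 to 4126 against 2164 to 5891 CPM). No gene of the 15 marker lists was called by edgeR in this pair, with 133 of 248 tested genes at an unadjusted p under 0.05, of which 118 were vomeronasal receptor genes, and DESeq2 called 0 by default and 2 without independent filtering. Of all genes, 4.71% were lower and 4.55% higher at an unadjusted p under 0.05 by edgeR. The summed level of vomeronasal receptor genes was highest in homozygous replicate 2 (119.9 CPM), then homozygous replicate 3 (69.5 CPM) and heterozygous replicate 1 (68.1 CPM), and the other 6 libraries had 14.6 to 17.3 CPM. With those 3 libraries left out, 1 homozygous library remained against 3 wild type libraries and was assumed to vary like the other groups, so the count of 0 members called says little. The median member log2 fold change was then -0.089, the value of a single homozygous mouse. With the summed gland marker level, which moved mainly with Bpifb9b, as a covariate, 3 members were called (Cyp1a1, Ugt2a1 and Adh1, all lower). The number of all genes called in that fit is not given, so these 3 calls cannot be set against a share over all genes. Both alternatives were chosen after seeing the data, and the part of cell composition was not tested beyond them.

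Homozygous against heterozygous mice gave the single call. Ugt2a1 fell from 660 ± 24.0 CPM in heterozygous mice (639, 686 and 656 CPM) to 541.5 ± 17.1 CPM in homozygous mice (SD, n = 3 each), with a log2 fold change of -0.29 (edgeR: SE 0.049, adjusted p = 0.0383). It was 1 of 140 members, against 0.114% of all genes called. The call was kept without wild type replicate 3 and without heterozygous replicate 3. It was lost without wild type replicate 1 (adjusted p = 0.0619) or 2 (0.0780), heterozygous replicate 1 (0.0821) or 2 (0.181), or homozygous replicate 1 (0.104), 2 (0.181) or 3 (0.0683), and with the 6 libraries of the pair alone (0.0955). Without the 3 libraries with vomeronasal receptor reads the adjusted p was 0.782, with 1 homozygous library left against 2 heterozygous ones. Over 18 alternatives the log2 fold change stayed between -0.32 and -0.26, and 9 of them called the gene.

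At an unadjusted p under 0.05, 26 members were lower in homozygous than in heterozygous mice, or 18.6% against 6.2% of all genes, and 4 were higher, or 2.86% against 4.22% of all genes. Every homozygous library lay below every heterozygous one in 22 members (15.7%, against 7.67% of all genes) and above in 8 (against 6.41% of all genes). Cyp3a13 had 31.3, 30.4 and 27.1 CPM in wild type, 30.9, 32.0 and 35.9 CPM in heterozygous and 24.4, 25.6 and 27.2 CPM in homozygous mice. Its homozygous libraries lay below the heterozygous ones and reached into the wild type range. Its log2 fold change was -0.36 (edgeR: SE 0.077, adjusted p = 0.110). Aox3 had -0.31 (edgeR: SE 0.070, adjusted p = 0.116), and Cyp2e1 -0.34 (edgeR: SE 0.084, adjusted p = 0.166). DESeq2 called 8 members, all lower, and its count over all genes is given at the end. Without heterozygous replicate 3 edgeR called 190 genes, of which 6 were members. Those 6 were all lower and included Aox3, Ugt2a1, Cyp2f2, Aldh3a1 and Adh7. Heterozygous replicate 3 was the low library for Aldh3a1 and Adh7 among heterozygous mice. This comparison and the previous one share the homozygous libraries.

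Heterozygous and wild type mice were close. edgeR called 0 of 140 members, against 0.00495% of all genes, and DESeq2 called 0. Unadjusted p-values under 0.05 were found for 5 members by edgeR, 3 of them lower (2.14% of members, against 1.49% of all genes) and 2 higher (1.43%, against 1.75% of all genes). The median log2 fold change was -0.017. Aldh1a7 had 94.9, 98.2 and 101.6 CPM in wild type and 85.3, 94.4 and 90.1 CPM in heterozygous mice (log2 fold change -0.13, SE 0.049, edgeR adjusted p = 1), and 95.9 to 103.1 CPM in homozygous mice. Its heterozygous libraries lay below those of both other genotypes. Cyp2e1, Gsta3 and Ces1e had log2 fold changes of 0.20, -0.14 and 0.18 (edgeR adjusted p = 1 each). Sult2a1, the gene with the smallest p-value, had 3, 3 and 4 reads in wild type mice and 0 in each heterozygous mouse, too few for a fold change.

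Among the 84 deeper members, the lowest library was a homozygous one for 47 members, or 56.0%, against 41.0% of all genes of that depth, and a wild type one for 10, or 11.9% against 23.6%. Homozygous replicate 2, which held the most vomeronasal receptor reads, was lowest for 26 members, or 31.0% against 16.6% of all genes. The highest library was a homozygous one for 15 members, or 17.9% against 39.2% of all genes.

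Genes that serve these enzymes did not pass the test in any pair. Of 55 genes in 6 lists, edgeR called 0 in each pair, with 4, 2 and 6 at an unadjusted p under 0.05 in homozygous against wild type, heterozygous against wild type and homozygous against heterozygous mice, and DESeq2 called 0. Those lower at that limit were 4, 2 and 4 genes, against 4.71%, 1.49% and 6.2% of all genes. Those higher were 0, 0 and 2 genes, against 4.55%, 1.75% and 4.22% of all genes. In the first of these pairs the median log2 fold change was -0.025 over 5 electron donors of P450, -0.074 over 4 heme synthesis genes, -0.064 over 8 genes of cofactor supply, -0.0084 over 11 sensors and regulators, -0.047 over 19 other detoxifying enzymes and -0.075 over 8 export pumps. Por, the reductase that feeds electrons to every microsomal P450, had 559 ± 11.8 CPM in wild type and 539 ± 25.2 CPM in homozygous mice (SD, n = 3 each), and these overlapped. Alas1, the first enzyme of heme synthesis, had a log2 fold change of -0.15 (edgeR: SE 0.066, adjusted p = 0.514) and Gss, the glutathione synthetase, of -0.19 (edgeR: SE 0.059, adjusted p = 0.373). The pump with the smallest p-value was Abcg2, which exports conjugates, with -0.39 (edgeR: SE 0.13, adjusted p = 0.387). Among the regulators, Ahr, the receptor that induces Cyp1a genes, had 43.9 ± 2.75 and 45.0 ± 1.82 CPM in wild type and homozygous mice, and Nfib, a nuclear factor I gene, 200.3 ± 6.45 and 198.0 ± 18.5 CPM (SD, n = 3 each). Both overlapped between the genotypes.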

How the data were processed

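Whole MOE of 9 mice was profiled by RNA-seq. Per the methods, the authors mapped reads to mm10 with Hisat2 and deposited raw counts per gene, 1 column per mouse. The methods name featureCounts and the submitters' processing notes HTSeq (0.6.1p1), and 5 summary lines in the layout of htseq-count were left out. Annotation and strand setting are not given in the sources used here, so overlapping genes may share or lose reads. Another deposited table, counts divided by size factors, was not used. Of the reads listed, 1.29 to 1.35% were ambiguous and 16.9 to 19.4% not unique.

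Genes with at least 10 reads over all libraries were fitted with edgeR 4.0.16 (R 4.3.3, TMM, quasi-likelihood, genotype as the only term, all 9 libraries), with Benjamini-Hochberg adjustment over 20213 genes and a threshold of 0.05. All 3 genotype pairs were tested. TPM used the exon union of GENCODE M21 (GRCm38). DESeq2 1.42.0 and the other alternatives are given at the end. Scripts were tested on simulated data. Members, gene lists and alternatives were chosen with earlier results of these data known. Named members are the 20 most abundant, the top 2 of each class, up to 10 called (or the 5 smallest p-values) per pair, the 5 most and least variable, those at the 10-read limit, and genes sharing exons with them. Aldh1a1, Cyp1a1 and the Cyp2c, Cyp3a, Ces2 and Ugt1a subfamilies were named after their values were seen. A result that the rule would name is not reported here.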

Additional observations from a re-analysis of the deposited data

How the results depend on the processing

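The median log2 fold change of the members kept its sign throughout: homozygous minus wild type ran from -0.11 to -0.087, heterozygous minus wild type from -0.039 to -0.0046, and homozygous minus heterozygous from -0.11 to -0.038, the last moving most (-0.11) without the 3 libraries with vomeronasal receptor reads, an alternative chosen after seeing the data that leaves 1 homozygous mouse, so that its values rest on that mouse and say nothing of stability. Calls depended on the tool and the libraries. For homozygous minus wild type (10 genes and 0 members called), DESeq2 called 63 genes and 5 members with default settings and 54 and 5 without independent filtering, no filter on low counts called 1 member, the 6 libraries compared alone gave 47 genes and 7 members, and the gland covariate (chosen after seeing the data) gave 3 members. The number of all genes called is not given here for the gland covariate in any pair. Nor is it given for the fit without a filter in this pair. With 1 library left out, genes called ran from 8 to 33 and members from 0 to 3. The 33 came without heterozygous replicate 3, and 16 without heterozygous replicate 2.

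For heterozygous minus wild type (1 gene, 0 members), DESeq2 called 3 genes under either setting, and 0 were called beyond 1.5-fold or with the 6 libraries alone. With 1 library left out 0 to 1 were called, the gene being lost without wild type replicate 1 or 3, heterozygous replicate 2 or 3, or homozygous replicate 3. No member was called under any setting run. For homozygous minus heterozygous (23 genes, 1 member), DESeq2 called 130 genes with default settings and 126 without independent filtering, with 8 members each. No filter gave 50 genes and 2 members, a 1.5-fold threshold 10 and 0, the 6 libraries alone 11 and 0, the gland covariate 4 members and leaving out the vomeronasal libraries (1 homozygous against 2 heterozygous mice) 0. With 1 library left out, genes ran from 7 to 190 and members from 0 to 6, and the 190 and 6 came without heterozygous replicate 3. Leaving out wild type replicate 1 or 2 gave 9 and 11 genes, heterozygous replicate 1 or 2 gave 7 and 9, and homozygous replicate 2 gave 9. The member, Ugt2a1, was lost in 7 of these 9 fits, all but those without wild type replicate 3 or heterozygous replicate 3. The causes were not tested.

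Against wild type, the correlation of same-numbered deviations ran from -0.24 to 0.094. Between homozygous and heterozygous mice it was 0.024, 0.395 and 0.451 for replicates 1, 2 and 3. There each homozygous library was closest to the heterozygous library of its own number. Whether the numbers mark a shared factor was not tested, and the main fit held no replicate term. A replicate block gave 0 called genes for heterozygous minus wild type and 41 for homozygous minus heterozygous. The members called stayed at 0, 0 and 1 under the block.

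Of the 20 most abundant members, 19 were kept with the longest transcript and 19 with unshared exonic bases as the length. Summed levels moved by less than 1 SD with DESeq2 size factors and with 1 library left out. With 3 mice a genotype, DESeq2's default limit on mean counts left 89 members without an adjusted p in homozygous minus wild type. Fold changes were estimated for members of a few reads too, where they are not informative.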
